A study of Bos taurus with 32 samples.

Results

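High fat and control diets were compared in the visceral fat of steers, on 16 of the 32 arrays of the study, 8 per diet, chosen by the diet and depot in their labels. The animals were yearling Hereford × Aberdeen Angus crossbred steers, each fed 1 of the diets for some months until slaughter, and the high fat diet held flax seed that the control diet lacked. Visceral fat was perirenal fat, the depot around the kidney. Total RNA of each steer was labelled with the dye Cy3 and hybridized to 1 array with 20 spots for each of 672 bovine miRNAs. The 8 arrays of a group shared a slide and each diet was scanned in its own session, so diet, slide and session cannot be told apart. Values were therefore compared mainly within an array: as shares of the summed signal, as ranks, as ratios of 2 miRNAs, or relative to the array's median over the 93 miRNAs detected on all 16 arrays, called common miRNAs below. This removes a factor common to all spots of an array, but not a slide or session effect that differs between probes. The comparison asks which miRNAs of perirenal fat stood higher or lower among the others when the steers ate more fat.

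MicroRNAs are short RNAs cut from hairpin precursors that pair with messenger RNAs through a seed near their 5′ end and reduce the output of those messengers. Members of a family share the seed, a hairpin can release a miRNA from each arm, and several hairpins can lie on a single transcript. Fat tissue holds adipocytes and also vessels, blood cells, fibroblasts and nerves, and some miRNAs are known mainly from 1 of these cell types. RNA came from whole tissue, so fewer cells of a type and less of a miRNA per cell cannot be told apart.

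The arrays of the high fat diet were brighter. Summed signal, in background-subtracted fluorescence units, was 26021 to 56259 (median 31928) among control steers and 96888 to 285864 (median 151704) among high fat steers. The labelling spike-ins were not brighter there: group medians were 5117 and 5123 for dmr_285 and 2411 and 1582 for dmr_31a, control first. Those of 2 further spike-ins were 21465 and 16825 for dmr_3 and 14714 and 11681 for dmr_6. Even the ratio of the 2 probes of dmr_3 differed, with medians of 0.960 on control and 0.816 on high fat arrays (two-sided exact permutation test, p = 0.00295). Detected miRNAs numbered 115 to 166 per control array (138 ± 19.2, SD, n = 8) and 169 to 259 per high fat array (208 ± 30.04, SD, n = 8), without overlap (two-sided exact permutation test, p = 0.000155, the smallest that 8 against 8 arrays can give). The brighter arrays also reached lower in scaled signal, their lowest detected log2 value being −6.57 in the median against −4.08 on control arrays, relative to the array's median over the common miRNAs. Above 1 threshold for all arrays on that scale, the highest of the arrays' lowest detected values, there were 114 to 128 miRNAs per control array (119.9 ± 4.55, SD, n = 8) and 127 to 136 per high fat array (132.5 ± 3.07, SD, n = 8), with overlap (two-sided exact permutation test, p = 0.000311). The difference of the means was 12.6 miRNAs there, against 70.4 by the detection calls. In all, 282 miRNAs were detected on at least 1 array and 390 on none.

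Most of the common miRNAs changed place on the array, and no scaling can alter that order. Spearman's rho of the ranks of the 93 common miRNAs was 0.796 to 0.987 for pairs of control arrays, 0.935 to 0.994 for pairs of high fat arrays, and 0.428 to 0.874 (median 0.687) for pairs across the diets. By limma on the ranks with Benjamini-Hochberg adjustment, 36 moved up on the high fat diet (38.7 percent) and 41 moved down (44.1 percent), 82.8 percent in all. A change of rank was thus the rule among them.

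The miRNA at the top was replaced. Let-7b, of a family that is abundant in differentiated tissue, was the brightest on all 8 control arrays, with a signal of 6735 to 19827 (median 12342). Among high fat steers its signal was 4291 to 12708 (median 7244), and it ranked 3 to 4. Its share of the array was 33.9 ± 4.34 percent (SD, n = 8) and then 4.63 ± 0.247 percent (SD, n = 8). The shares lay far apart with no overlap, while the unscaled signals overlapped.

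The new leader was miR-2478, a miRNA recorded mainly from cattle. Its signal was 182 to 1731 (median 916) among control steers, where it ranked 4 to 17, against 41854 to 115123 (median 66969.5) among high fat steers, where it was first on all 8 arrays. Its share was 0.648 to 5.26 (median 2.72) percent of the control arrays and 38.6 to 55.6 (median 43.3) percent of the high fat arrays. With miR-2478 taken out of the sum, let-7b held 26.8 to 42.5 percent and 7.24 to 11.05 percent, so the groups were still apart.

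Let-7a ranked 2 on all 16 arrays, although its share was 15.4 ± 2.62 percent (SD, n = 8) with the control diet and 6.30 ± 0.457 percent (SD, n = 8) with the high fat diet. Without miR-2478 in the sum its median shares were 16.6 and 11.8 percent. MiR-126, made by endothelial cells, went from ranks 13 to 26 to ranks 3 to 6, and its share from 0.431 to 1.43 (median 0.842) to 2.61 to 4.61 (median 4.14) percent without overlap. Let-7c fell from ranks 3 to 4 to ranks 8 to 11, with shares of 6.15 to 8.96 (median 8.14) and 1.12 to 1.51 (median 1.29) percent. Let-7f kept similar ranks, 3 to 6 and 4 to 6 (adjusted p = 0.376, limma). The cattle miRNAs miR-1777b, miR-1777a and miR-2305 had median shares of 3.45, 1.90 and 2.001 percent on control arrays and 1.03, 0.854 and 0.582 percent on high fat arrays. Without miR-2478 in the sum these medians were 3.60, 1.98 and 2.07 percent, and 1.92, 1.50 and 1.03 percent. MiR-125b, of another widely expressed family, went from a median share of 1.53 to 2.31 percent, with overlap. Without miR-2478 in the sum it held 1.09 to 2.38 percent and 3.81 to 6.21 percent, without overlap.

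**Figure D1:**
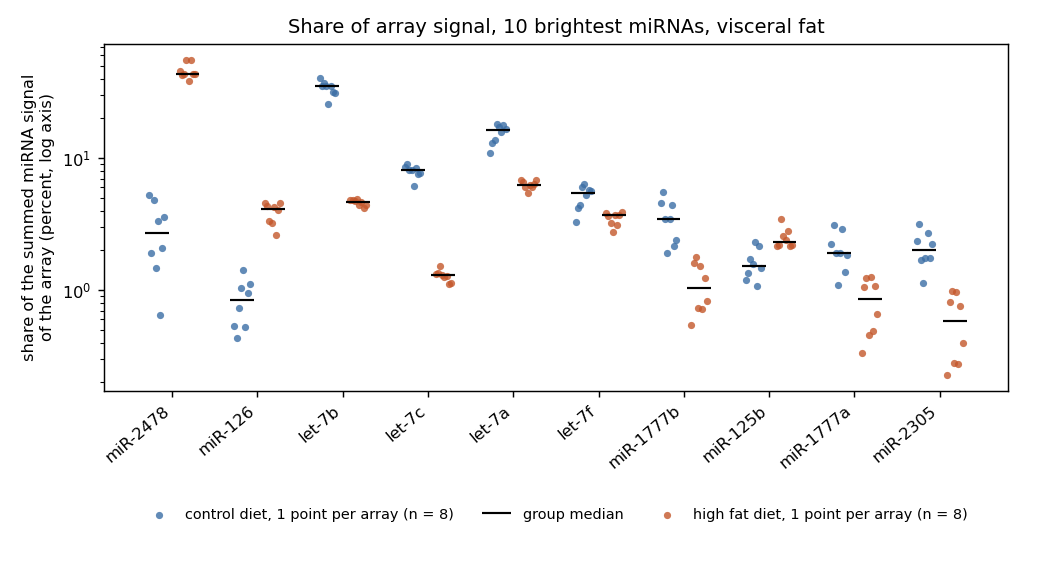
Share of the summed miRNA signal of the array (percent, log axis) for the 10 miRNAs with the largest mean share, 1 point per array, 8 arrays per diet, bars at the group medians. MiR-2478 lies at 0.648 to 5.26 percent among control steers and 38.6 to 55.6 percent among high fat steers, and let-7b moves the other way.

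The 4 largest rises in rank came from the dim end of the common set. MiR-30b-5p, whose family is linked to adipocyte differentiation, had a signal of 4.61 to 42.05 (median 12.7) among control steers and 420.0 to 1438 (median 751) among high fat steers, and ranks of 63 to 93 and 27 to 32. MiR-199b, related to the fibroblast miRNAs of the miR-199 family, had signals of 4.72 to 42.3 (median 8.56) and 319 to 1110.2 (median 436) and ranks of 62 to 92 and 34 to 40. MiR-34a, which p53 induces, had signals of 6.48 to 28.9 (median 12.01) and 248 to 1277 (median 349) and ranks of 71 to 90 and 34 to 48. None of these overlapped between the diets. MiR-15a, which restrains the cell cycle, had ranks of 54 to 87 and 25 to 39, again apart. The adjusted p of the rank was 6.35e-08 for miR-30b-5p, 6.35e-08 for miR-199b, 6.07e-09 for miR-34a and 4.66e-06 for miR-15a (limma).

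The 4 largest falls in rank were those of miR-423-5p, miR-2288, miR-1584 and miR-193a-5p. MiR-423-5p had a signal of 111 to 266 (median 188) in control steers and 48.9 to 204 (median 109) in high fat steers, at ranks 14 to 32 and 59 to 66. MiR-2288, recorded from cattle, had signals of 53.2 to 107 (median 63.99) and 17.999 to 77.2 (median 32.1) at ranks 38 to 53 and 71 to 81. Both were dimmer in absolute terms on arrays that were brighter as a whole, with overlapping signals and separate ranks. MiR-1584 went from ranks 8 to 23 to 37 to 48 and miR-193a-5p from 28 to 48 to 60 to 69. The adjusted p of these ranks was 5.31e-09, 6.07e-09, 3.2e-08 and 4.77e-07 (limma).

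**Figure D2:**
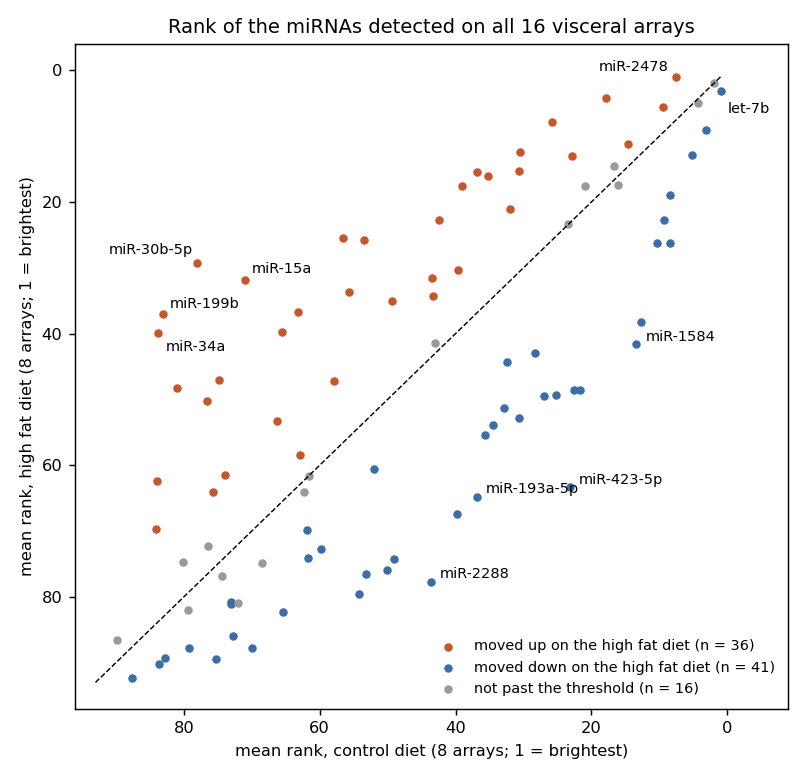
Mean rank of each of the 93 common miRNAs over 8 control arrays (horizontal) and 8 high fat arrays (vertical), where 1 is the brightest and the dashed line marks equal ranks. The 36 that moved up lie on one side of the line, led by miR-30b-5p and miR-199b, and the 41 that moved down on the other, led by miR-423-5p and miR-2288.

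On the log2 scale, each signal was set relative to the array's median over the common miRNAs. That array median was higher by 2.20 on average with the high fat diet, whereas the median of the miRNAs' own unscaled differences was 1.41. Of 177 miRNAs tested, 80 were higher with the high fat diet (45.2 percent) and 63 lower (35.6 percent), 80.8 percent in all (limma, Benjamini-Hochberg). The groups did not overlap for 57 of the common miRNAs (61.3 percent). The split depends on the scaling: with none, 130 were higher and 5 lower, relative to the spike-ins 146 and 1, with another background correction (normexp) 46 and 115, and with the deposited normalized values 52 and 78. Normexp was run with an offset of 50 added to every spot signal, which narrows differences among dim spots.

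Among the common miRNAs 32 were higher and 50 lower, with 11 neither. Among the 84 that some arrays did not detect, 48 were higher and 13 lower. A miRNA could enter the latter set through the high fat arrays alone, so its counts are a description. Undetected arrays were given a common floor value. For miRNAs of that set the difference therefore depends on the floor, and the SE does not fully measure the spread among control steers.

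Among the common miRNAs whose scaled values did not overlap between the diets, the largest rises, as log2 differences with their SE, were those of miR-2478 (4.20 ± 0.378), miR-30b-5p (3.36 ± 0.269), miR-199b (3.13 ± 0.257), miR-34a (2.79 ± 0.205) and miR-15a (2.72 ± 0.276). MiR-497 (2.35 ± 0.316) and miR-195 (2.18 ± 0.294), which share a transcript and the seed of miR-15a, and miR-126 (2.25 ± 0.199) came next. The adjusted p of these 8 was 1.88e-06 or less (limma). Larger differences were given by some miRNAs that control arrays did not all detect, such as miR-19b and miR-193a-3p, described below.

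In the same set, the largest falls were those of miR-2288 (−3.16 ± 0.203), miR-423-5p (−3.02 ± 0.244), let-7b (−2.90 ± 0.189), let-7c (−2.66 ± 0.176) and miR-665 (−2.59 ± 0.182). MiR-1835 (−2.43 ± 0.306), miR-1584 (−2.37 ± 0.287) and miR-2892 (−2.36 ± 0.231) followed, with an adjusted p of 7.66e-07 or less for the 8 (limma). MiR-2884, common but with overlapping groups, differed by −2.66 ± 0.498. In unscaled signal several of them hardly moved: the medians of miR-665 were 22.3 and 18.6, and those of miR-1584 were 469.8 and 405.

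With no scaling, 5 miRNAs were past the threshold as lower: let-7b (−0.70 ± 0.270), miR-2288 (−0.96 ± 0.285), miR-423-5p (−0.82 ± 0.294), miR-92b (−1.51 ± 0.286) and miR-940 (−0.61 ± 0.221). MiR-92b and miR-940 are named after their values were seen. MiR-92b was detected on 8 of 8 control arrays at 5.36 to 15.4 (median 11.1) and on 5 of 8 high fat arrays at 8.43 or less. It was also the 1 miRNA lower relative to the spike-ins (−1.25 ± 0.245, adjusted p = 8.05e-05, limma).

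Some miRNAs were detected with the high fat diet alone. 17 miRNAs stood above detection on each of the 8 high fat arrays and on no control array, and 0 showed the reverse. These were chosen by their detection in this comparison, so no p-value is given for them. All 17 were in the limma fit with every control value at the floor, and 11 are among its higher calls. Those calls are a description. The size of the rise depends on the limit that stands in for the control arrays. It is given as a bound with each control array's own lowest detected scaled signal, and then as the smaller value with the floor of −4.08 common to all arrays. MiR-19a, of the miR-17-92 cluster that acts in cell proliferation, had 61.3 to 351 (median 123) units among high fat steers and was at least 9.59-fold higher by the arrays' own limits and 8.07-fold with the common floor. MiR-142, made by blood cells, had 76.6 to 234 (median 104) units and was at least 8.58-fold higher by the arrays' own limits and 7.22-fold with the common floor. MiR-106, a relative of miR-17, was at least 4.40-fold higher by the arrays' own limits and 3.71-fold with the common floor. For miR-376d, miR-487b and miR-339 the bounds were 3.03, 2.91 and 2.77-fold, and 2.60, 2.45 and 2.33-fold with the common floor. With the normexp background correction the differences of miR-142 (−0.016), miR-106 (−0.45), miR-376d (−0.56), miR-487b (−0.68) and miR-339 (−0.68) were negative, and that of miR-19a was 0.16. The sign and size of the scaled differences thus depend on the background correction. The offset of 50 in that setting narrows differences among dim miRNAs such as these, and its part in the negative values was not tested.

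The let-7 family, whose members differ in few bases, moved apart. Of 9 members, 6 were lower, 1 higher and 2 neither, with a median log2 difference of −1.31 against 0.29 over all miRNAs tested. The falls ran from let-7b and let-7c through let-7d (−1.51 ± 0.138), let-7e (−1.41 ± 0.177) and let-7a (−1.31 ± 0.134) to let-7f (−0.56 ± 0.135). Let-7g alone was higher (0.73 ± 0.171, adjusted p = 0.000783, limma), with overlapping groups. Let-7i differed by −0.080 ± 0.182 and miR-98 by −0.23 ± 0.138, and neither passed the threshold. Let-7a and let-7f turn positive with no scaling and with the spike-ins, let-7f also with normexp, and let-7g turns negative in the deposited values. The family gave 62.5 to 73.8 percent of the signal in control steers and 16.6 to 19.9 percent in high fat steers, or 31.4 to 39.1 percent there without miR-2478 in the sum. How far the probe of 1 member binds another was not tested.

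Several families with known roles in fat had more members higher than lower. Their counts stand beside the 45.2 percent higher and 35.6 percent lower of all miRNAs tested, and the 38.7 percent of common miRNAs that moved up in rank. Of 5 miR-30 members tested 4 were higher and 0 lower (median 1.91), and all 4 common ones moved up in rank, among them miR-30c (1.91 ± 0.233) and miR-30d (0.59 ± 0.187). In the family of miR-15, miR-16, miR-195, miR-424 and miR-497, 6 of 7 were higher (median 2.35), and miR-15b was lower (−0.98 ± 0.247), though positive with no scaling or the spike-ins. Of the higher ones, miR-16a was detected on 7 of 8 control arrays, miR-16b on 6 and miR-424 on none, so their differences depend on the floor. MiR-16b was negative with normexp (−0.26). Of the list's 4 common members 3 moved up in rank and 1 down. Both miR-26 members were higher, miR-26b by 1.70 ± 0.210 and miR-26a by 1.26 ± 0.151, the latter near 0 in the deposited values (−0.030). The 3 tested members of miR-29, which represses collagens, were higher: miR-29a by 1.59 ± 0.292, miR-29b by 3.30 ± 0.394 and miR-29c by 3.69 ± 0.463, the last 2 undetected on 1 control array. MiR-103 (0.9983 ± 0.164) and miR-107 (1.50 ± 0.168), which act on insulin signalling, were higher as well, with miR-103 negative in the deposited values (−0.30), as was miR-30d (−0.70).

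Further families, some of them split or lower, stand beside the same 45.2 percent higher and 35.6 percent lower of all miRNAs tested. Of 11 tested members of the miR-17-92 cluster and its paralogs 7 were higher and 2 lower (median 1.89). The 7 higher ones were all undetected on some arrays, where of all partly detected miRNAs 48 of 84 were higher. Of the list's 2 common members 0 moved up in rank and 1 down. MiR-19b (4.38 ± 0.288, 5 of 8 control arrays) and miR-106b (3.72 ± 0.344, 4 of 8) were higher, miR-92 (−1.76 ± 0.194) and miR-92b lower, and miR-25 differed by 0.21 ± 0.158. MiR-92 was positive with no scaling (0.44), and miR-92b lower there too. Of 5 miR-23, miR-24 and miR-27 members 4 were higher, with miR-24-3p at 1.44 ± 0.131 and miR-27b at 1.35 ± 0.239. MiR-99a (1.68 ± 0.179), miR-100 (1.16 ± 0.195) and miR-125b (0.63 ± 0.165) were higher among 5 members of their families, with 1 lower, and miR-100 and miR-125b were negative in the deposited values. Next to HOX genes, miR-10b (1.71 ± 0.210) and miR-10a (1.50 ± 0.253) were higher and miR-196a (−0.79 ± 0.207) lower, though positive with no scaling or the spike-ins. Of 3 miR-181 members 2 were lower, miR-181a by −1.65 and miR-181b by −1.08, both positive with no scaling or the spike-ins. Both miR-148 members passed as higher, miR-148a by 3.64 ± 0.477 (6 of 8 control arrays) and miR-148b by 0.76 ± 0.325 (4 of 8), the latter negative with normexp. Neither was a common miRNA, so these differences depend on the floor. Of 5 miR-199 and miR-214 members 4 were higher and miR-214 lower. Of 8 tested miRNAs of the imprinted DLK1-DIO3 region, 5 were higher, all undetected on some control arrays, with miR-379 first (2.13 ± 0.183), where of all partly detected miRNAs 48 of 84 were higher, and 2 lower, miR-665 and miR-494 (−1.57 ± 0.266), the last positive with no scaling and miR-379 negative with normexp.

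The miRNAs numbered from miR-2281 to miR-2499, recorded mainly from cattle, were mostly lower relative to the array's median over the common miRNAs. Of 269 on the array 26 were tested, 20 lower, 1 higher and 5 neither (median −1.31), and the higher one was miR-2478. Of all miRNAs tested 35.6 percent were lower. With no scaling miR-2288 alone of this group passed as lower, and relative to the spike-ins none did. The group's members other than miR-2478 gave 3.25 to 7.27 percent of the signal in control steers and 0.945 to 2.81 percent in high fat steers. Here miR-2478 stayed in the sum, where it held 38.6 to 55.6 percent on high fat arrays, which lowers the shares there. The shares of this group with miR-2478 out of the sum were not computed. Its brightest members after miR-2478 included miR-2305 (−2.03 ± 0.279) and miR-2328* (−2.18 ± 0.302), which turn positive with no scaling or the spike-ins. Of 9 tested from miR-2881 to miR-2904, 8 were lower (median −1.51), among them miR-2888 (−1.53 ± 0.340) and miR-2881 (−1.51 ± 0.300), both positive with no scaling or the spike-ins. With no scaling none from miR-2881 to miR-2904 passed as lower.

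**Figure D3:**
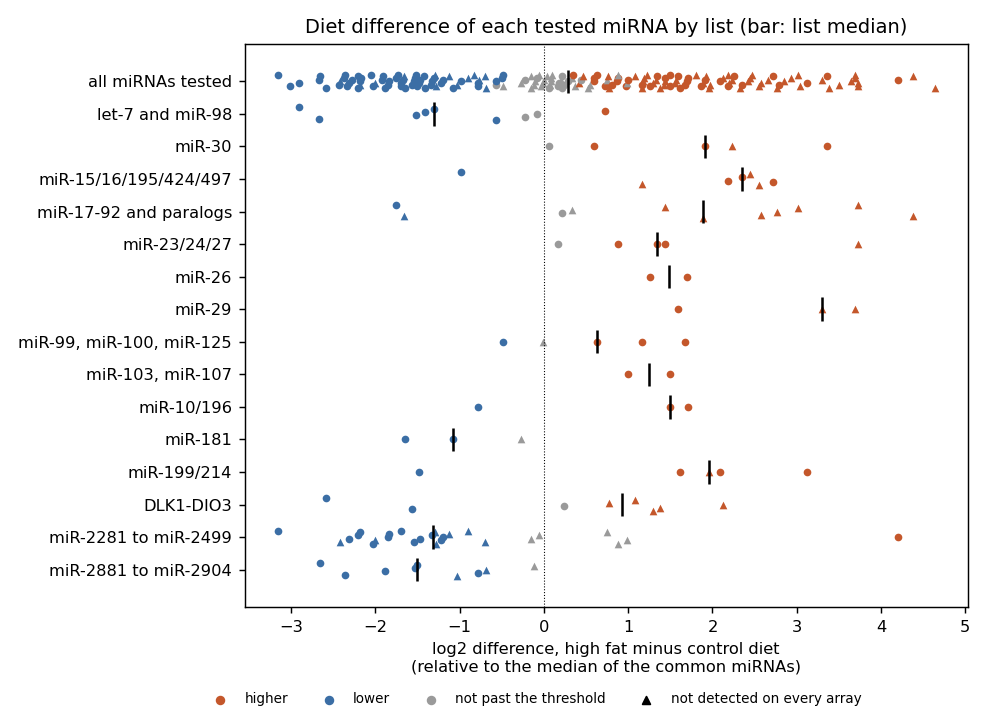
Log2 difference, high fat minus control diet, relative to the array's median over the common miRNAs, for every tested miRNA (top row) and by list, 1 point per miRNA, black bars at the medians. Triangles mark miRNAs that some arrays did not detect. The let-7 members run from −2.90 to 0.73, the miR-30 members from 0.056 to 3.36, and among the miRNAs from miR-2281 to miR-2499 miR-2478 stands alone at 4.20.

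Ratios of related miRNAs on the same array are also free of scaling. Of 18 pairs, 11 had both members on all 16 arrays, 10 of these differed between the diets and 5 did so without overlap (two-sided exact permutation tests, adjusted over the 11 pairs). The log2 ratio of let-7g to let-7c was −4.81 to −2.94 in control steers and −0.91 to 0.043 in high fat steers, a 10.5-fold change in the means (adjusted p = 0.000342, exact permutation test). That of let-7f to let-7b was −3.61 to −2.03 and −0.83 to −0.17, a 5.05-fold change (adjusted p = 0.000342, exact permutation test). The neighbours miR-30b-5p and miR-30d had a log2 ratio of −2.80 to −0.10 and 1.15 to 1.83, a 6.83-fold change without overlap (adjusted p = 0.000342, exact permutation test).

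The ratios of miR-23a to miR-24-3p (−0.57) and of miR-151 to its partner arm miR-151* (−0.63) were lower without overlap. Those of miR-27b to miR-23b-3p (1.18, adjusted p = 0.00214) and of miR-26b to miR-26a (0.43, adjusted p = 0.00342) were higher with overlap (exact permutation tests). The ratio of miR-10a to miR-10b differed by −0.20 and did not pass (adjusted p = 0.124, exact permutation test). Those of miR-199a-5p to miR-199a-3p (0.48), miR-103 to miR-107 (−0.50) and miR-100 to miR-125b (0.54) passed, but with the normexp background correction they were −1.38, 0.63 and −0.41, of the opposite sign.

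**Figure D4:**
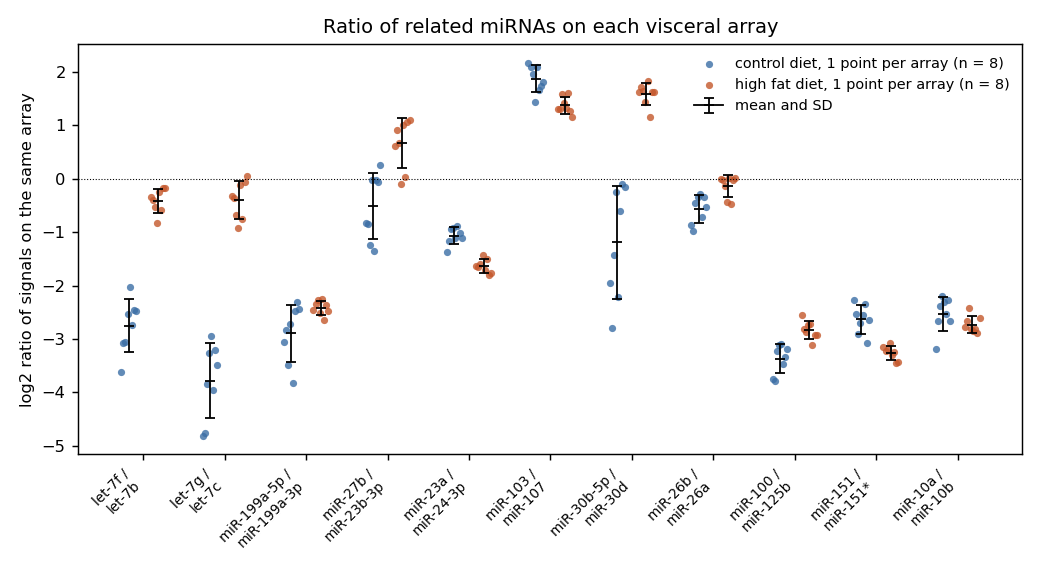
Log2 ratio of the signals of 2 related miRNAs on the same array, 1 point per array, 8 arrays per diet, with the mean and SD of each diet. The ratios of let-7f to let-7b, let-7g to let-7c and miR-30b-5p to miR-30d are higher on every high fat array than on any control array, and those of miR-10a to miR-10b overlap.

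The arms of a hairpin were looked at after their values had been seen, so they are a description. Of 8 hairpins with both arms tested, 4 had both arms higher and 2 had arms called in opposite directions. MiR-193a-3p was detected on 3 of 8 control arrays, at 10.1 or less, and on all high fat arrays at 129 to 1558 (median 449), a log2 difference of 4.64 ± 0.403. Its partner miR-193a-5p had 80.7 to 131 (median 97.1) and 47.5 to 166 (median 97.2) units (−2.20 ± 0.277). The unscaled level of the 5p arm was thus alike in the diets while that of the 3p arm went from near the detection limit to a bright signal. MiR-425-5p was detected on 2 control arrays, at 3.94 or less, and on all high fat arrays at 23.3 to 71.2 (median 39.6), a log2 difference of 1.43 ± 0.154. Its partner miR-425-3p had 14.7 to 21.2 (median 16.7) and 0.1 to 17.1 (median 14.3) units, the lowest standing for an undetected array (−2.19 ± 0.200). MiR-30b-3p differed by −0.15 ± 0.124 (adjusted p = 0.273, limma) beside the rise of miR-30b-5p. It was detected on only 4 of 8 control and 5 of 8 high fat arrays, so a difference below the floor could not show.

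**Figure D5:**
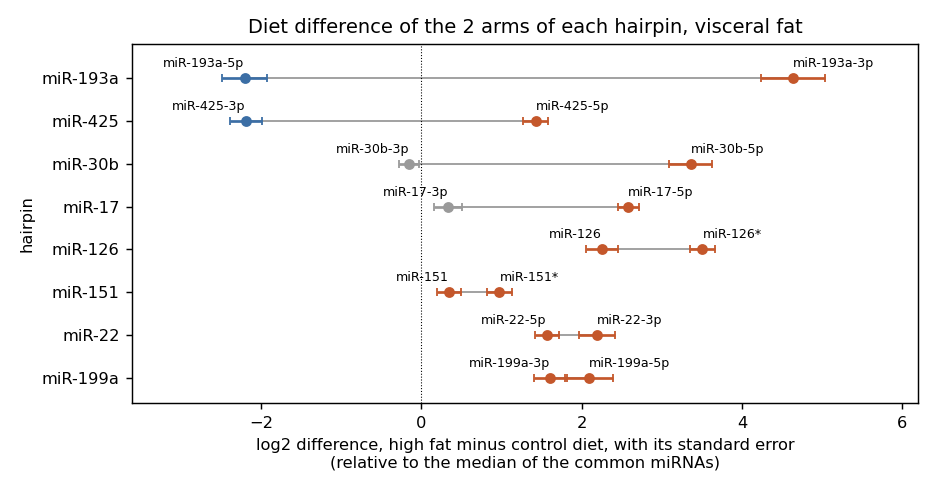
Log2 difference, high fat minus control diet, with its standard error, for the 2 arms of each of 8 hairpins, relative to the array's median over the common miRNAs. Orange points are higher, blue points lower and grey points not past the threshold, and the arms of miR-193a and miR-425 lie on opposite sides of 0.

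MiRNAs whose hairpins lie close together in the genome did not always move together. A mature miRNA can come from more than 1 hairpin, and the array does not tell these apart. Let-7a, for example, lay beside let-7b, let-7d, let-7f and miR-100. The calls are therefore those of mature miRNAs and not of single hairpins. 175 of the 177 tested miRNAs were found in the RefSeq gene table of ARS-UCD2.0, used here for neighbourhood only, and 55 pairs lay within 10 kb. In 23 pairs both were higher, in 6 both lower and in 11 the calls were opposite. Most of the pairs with both higher, and most with opposite calls, held a miRNA that some arrays did not detect. Those calls depend on the floor, and of all partly detected miRNAs 48 of 84 were higher. Of all miRNAs tested, taken singly and not in pairs, 45.2 percent were higher and 35.6 percent lower. A miRNA could stand in several pairs, so the pairs are not separate observations, and their counts were not tested. Opposite pairs included let-7c (−2.66) and miR-99a (1.68), let-7a (−1.31) and miR-100 (1.16), miR-19b (4.38) and miR-92 (−1.76), miR-16b (2.44) and miR-15b (−0.98), and miR-199a-5p (2.09) and miR-214 (−1.49). With no scaling the differences of let-7a, miR-92, miR-15b and miR-214 are positive, and that of let-7c (−0.47) does not pass. Pairs with like values were miR-195 (2.18) and miR-497 (2.35), and miR-24-3p (1.44) and miR-27b (1.35).

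Adipocytes have no miRNA of their own. Of 6 miRNAs known as abundant or active in them, miR-103, miR-365-3p and miR-378 were on all 16 arrays. MiR-378, encoded in a gene of mitochondrial metabolism, had a share of 0.571 to 1.44 (median 0.753) and 0.557 to 1.19 (median 0.968) percent with overlapping ranks (0.18 ± 0.224, adjusted p = 0.456, limma). MiR-365-3p, linked to brown fat, differed by 0.45 ± 0.210 (adjusted p = 0.0596, limma). In the deposited values both were lower, miR-378 at −1.11 (adjusted p = 0.00359, limma) and miR-365-3p at −0.85 (adjusted p = 0.0167, limma). Of 17 tested miRNAs that other work ties to adipocyte differentiation 13 were higher and 0 lower (median 1.50), against 45.2 and 35.6 percent of all miRNAs tested, and 8 of the members were not detected on all 16 arrays. Of the list's 9 common members 7 moved up in rank and 0 down, against 38.7 and 44.1 percent of all common miRNAs. MiR-130a (3.38 ± 0.270) and miR-143 (1.92 ± 0.161) were among the higher ones, on 5 and 3 of 8 control arrays, the latter negative with normexp.

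Markers of other cells moved both ways. The summed shares given for them, here and below, keep miR-2478 in the sum of the array. The endothelial pair was higher, with miR-126* (3.51 ± 0.159) on 3 of 8 control arrays beside miR-126, and their summed share was 0.431 to 1.43 and 2.69 to 4.76 percent. Of the smooth muscle pair, miR-143 was higher and miR-145 differed by 0.21 ± 0.196, with summed shares of 0.613 to 1.61 and 0.935 to 1.53 percent. Of the fibroblast miRNAs, miR-199a-5p (2.09 ± 0.297) and miR-199a-3p (1.61 ± 0.204) were higher and miR-214 (−1.49 ± 0.172) lower, though positive with no scaling or the spike-ins, with shares of 0.440 to 1.02 and 0.685 to 1.76 percent. The vessel and connective tissue miRNAs thus did not move as a block.

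Of the red cell miRNAs, miR-451 was higher (1.80 ± 0.213, 2 of 8 control arrays), miR-486 lower (−2.33 ± 0.205) and miR-144 on no array. MiR-451 was negative with normexp and miR-486 positive with the spike-ins. Their summed shares were 0.0997 to 0.165 and 0.0416 to 0.0909 percent. On high fat arrays miR-2478 held 38.6 to 55.6 percent of that sum, which lowers the shares there. Of the leukocyte miRNAs, miR-142 was higher, miR-155 (−1.34 ± 0.227) and miR-223 (−0.50 ± 0.163) lower, and miR-146b differed by 0.36 ± 0.272, while miR-146a and miR-150 were on no array. MiR-142 and miR-146b were each detected on 0 of 8 control and 8 of 8 high fat arrays, so their differences depend on the floor. With normexp both were negative (−0.016 and −0.90). MiR-155 and miR-223 were positive with no scaling or the spike-ins. The summed shares of the leukocyte miRNAs were 0.0886 to 0.193 and 0.105 to 0.231 percent.

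Of 7 muscle miRNAs 2 were tested, miR-1 higher (1.19 ± 0.219) and miR-133b at −0.030 ± 0.139, with miR-1 negative under normexp, and the summed share was 0.00214 to 0.0809 and 0.0263 to 0.0721 percent. Of the kidney epithelium miRNAs, which perirenal samples could hold, miR-194 was detected on no control array and on all high fat arrays at 11.2 to 66.6 (median 27.7) units. MiR-192 was detected on 7 high fat arrays alone and miR-215 on 1, and their summed share with miR-194 was 0.0289 percent or less. MiR-194 was negative with normexp (−0.77). Of all miRNAs on the array, 154 were detected on more high fat than control arrays and 28 on more control arrays. MiR-122 of hepatocytes was detected on 1 control and 2 high fat arrays. The 4 adrenal and neural miRNAs, miR-7, miR-9, miR-124a and miR-375, were on no array. The part of these cells in the diet differences was not tested.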

How the data were processed

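Total RNA of 16 visceral fat samples, 8 steers per diet, was hybridized to Agilent miRNA arrays. Per the file headers, the authors extracted each scan with Feature Extraction and deposited, for each miRNA, a background-subtracted total intensity that was not scaled between arrays (0.1 where undetected) and a detection call. The authors also deposited log2 values, scaled in GeneSpring to a percentile of each array and listed as 0 where negative. Of these, 244 features were matched to miRNAs by value and served as an alternative. On no array were spots saturated, and 3.39 percent carried an outlier mark.

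Here log2 signals were centred on the array's median over the common miRNAs. Values under −4.08, the higher of the group medians of the lowest detected scaled signal, were set to that floor. MiRNAs detected on at least 8 of 16 arrays and above the floor on at least 1 were tested with limma 3.58.1 in R 4.3.3 (adjusted p under 0.05), after the fit was tested on simulated data. Ranks used the same fit, and pair ratios and detection counts used exact permutation tests. Shares, lists, arms and neighbours are descriptions. Samples were grouped by labelled diet and depot. The number of arrays limits the precision.

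The text names the 8 largest rises and falls without overlap on all 16 arrays, the 10 largest shares, the 4 largest moves of rank each way, the 6 largest bounds for miRNAs of 1 diet, the pairs, the markers and the brightest members of lists. Further family, arm and neighbour members were added after their values were seen. MiRNAs and lists were chosen with earlier results of these data known. Alternatives were other scalings, floors, filters, background corrections and signals, the deposited values, the methods' t-test, all 32 arrays in 4 groups, and slide position as a block. Sequences of miRNAs and probes were not used here.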

Additional observations from a re-analysis of the deposited data

Results flagged for a closer look

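Each named common miRNA was looked at in each diet, 124 groups of 8 arrays in all, and in 2 of them 1 array stood apart from the rest. Chance flags about 1 in 20 groups. The scaled log2 signal of miR-15b was 0.94 for high fat steer 103 and 0.17 to 0.53 for the other arrays of that diet. That of miR-223 was −0.35 for control steer 211 and −1.22 to −0.82 for the others.

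The diet difference in visceral fat was set against that in subcutaneous fat of the same steers by limma with the steer as a random block. Of 177 miRNAs 3 differed after Benjamini-Hochberg adjustment, and 25 at an unadjusted p under 0.05. On the log2 scale the fitted values were 0.83 for miR-339, 0.69 for miR-487b and 0.91 for miR-362-5p, the last named after its value was seen, each larger in visceral fat. Visceral control arrays detected miR-339 and miR-487b on 0 of 8 and miR-362-5p on 3 of 8, so these values rest on the floor set for undetected arrays, and no difference between the depots is drawn from them.

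Several control features whose target the files do not give were brighter on the high fat arrays, hur_6 most, with a median total signal 15.3 times as high on high fat as on control arrays. It was 799 or less on every control array and 2775 or more on every high fat array. The ratio of the medians was 6.37 for hur_1, 3.23 for hur_2 and 2.67 for hur_4, and hur_5 was undetected on every array.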

How the results depend on the processing

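No paired analysis was possible because the steers of the 2 diets differ. The number of arrays and each array's detection limit bound what can be seen.

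The main counts were 80 higher and 63 lower, with 55.9 percent of the calls higher. They were 130 and 5 (96.3 percent) with no scaling, 146 and 1 (99.3 percent) with the spike-ins, 46 and 115 (28.6 percent) with normexp, 52 and 78 (40 percent) with the deposited values, and 31 and 51 (37.8 percent) with the common miRNAs alone, which leaves fewer to call. The 75th percentile over all miRNAs gave 0 and 125 (limma, 0 and 126 at an unadjusted p under 0.05). On all 8 control arrays that percentile was an undetected value, so named miRNAs were not refitted under it. The methods' t-test gave 67 and 44 after Bonferroni and 79 and 63 after Benjamini-Hochberg. The median difference of the common miRNAs was 1.41 unscaled, −1.005 with their 75th percentile, −5.45 with that of all miRNAs and −0.75 with the summed signal. Ranks differed for 77 of 93 miRNAs, and for 142 when all miRNAs detected on at least 8 arrays were ranked.

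With spot signals the ratio of miR-199a-5p to miR-199a-3p was 0.25 and lost its call, and that of miR-10a to miR-10b was −0.39 and gained one. With normexp the latter was −1.42, past the threshold, while miR-199a-5p to miR-199a-3p (−1.38), miR-103 to miR-107 (0.63) and miR-100 to miR-125b (−0.41) turned sign. The other 7 pairs kept direction and call under both.

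Of 87 named miRNAs with a test, differences that turned sign were as follows, and the causes were not tested. With no scaling these were let-7a (0.89), let-7f (1.63), miR-1777b (0.50), miR-1777a (0.77), miR-2305 (0.17), miR-221 (1.64), miR-92 (0.44), miR-15b (1.22), miR-196a (1.41), miR-181a (0.54), miR-181b (1.08), miR-181d (1.59), miR-214 (0.71), miR-2328* (0.016), miR-2893 (1.41), miR-2888 (0.67), miR-2881 (0.69), miR-494 (0.63), miR-133b (2.02), miR-155 (0.85) and miR-223 (1.70). With the spike-ins they were miR-1835 (0.22), miR-1584 (0.28), miR-2892 (0.29), let-7a (1.34), let-7f (2.09), miR-1777b (0.95), miR-1777a (1.22), miR-2305 (0.62), miR-193a-5p (0.45), miR-221 (1.88), miR-92 (0.89), miR-15b (1.67), miR-196a (1.86), miR-181a (0.9972), miR-181b (1.54), miR-181d (1.62), miR-214 (1.16), miR-2328* (0.47), miR-2893 (1.87), miR-2888 (1.12), miR-2881 (1.14), miR-494 (1.08), miR-133b (2.23), miR-486 (0.32), miR-155 (1.31) and miR-223 (2.15). With quantile normalization it was miR-151 (−0.13). With the floor at the median array it was miR-133b (0.76). With normexp they were let-7f (0.46), miR-142 (−0.016), miR-106 (−0.45), miR-376d (−0.56), miR-487b (−0.68), miR-339 (−0.68), miR-143 (−0.57), miR-151 (−0.30), miR-16b (−0.26), miR-148b (−0.70), miR-127 (−0.47), miR-379 (−0.38), miR-1 (−0.68), miR-451 (−0.57), miR-146b (−0.90) and miR-194 (−0.77). With the deposited values they were miR-125b (−0.67), let-7g (−0.57), miR-145 (−1.08), miR-23b-3p (−1.12), miR-23a (−0.42), miR-103 (−0.30), miR-30d (−0.70), miR-26a (−0.030), miR-100 (−0.13), miR-25 (−1.08), miR-151 (−0.95), miR-151* (−0.32), miR-127 (−1.06), miR-378 (−1.11) and miR-365-3p (−0.85). None turned sign with the 75th percentile of the common miRNAs, the summed signal, the highest floor, the common miRNAs alone, the spot signals, slide position or all 32 arrays.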
